A study of Homo sapiens with 4 samples.

Results

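The matrix-binding integrin chains are the α and β subunits with which epithelial cells hold collagen, laminin and RGD-containing proteins such as fibronectin, outside the hemidesmosome. The set holds 10 genes, ITGA1, ITGA2, ITGA3, ITGA5, ITGAV, ITGB1, ITGB3, ITGB5, ITGB6 and ITGB8, out of the 58233 genes of the deposited count table. They were chosen by symbol and not by a cut on measured values, though with earlier results of these data known. All 10 had a row of their own, and all 10 had enough reads to be tested among 13179 genes. Transcripts were sequenced from MCF10AT, breast epithelial cells of the MCF10A lineage that carry activated HRAS. There were 2 libraries labelled Bromo+/- and, as controls, 2 with the label non-target control; paired values below give the former first and the controls after "against". The labels do not spell out Bromo+/-. The treatment protocol shared by all 4 samples describes lentiviral shRNA and puromycin selection, and all were grown with serum from horse, EGF, hydrocortisone, cholera toxin and insulin. No label says whether the libraries of a group came from separate cultures or clones. Every p-value below thus rests on these libraries alone, and the spread between them may be technical. The count columns of a group share a number that no label explains, and each group may be a single clone. The series text speaks of EP300 shRNAs and of more replicates than these, so what separates the groups is known only as far as the sample labels say.

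An integrin is a heterodimer of 1 α and 1 β chain that spans the membrane, grips the matrix outside and recruits talin and kindlin inside. ITGB1 pairs with many α chains: with ITGA1 or ITGA2 it binds collagen, with ITGA3 laminin, and with ITGA5 fibronectin. ITGAV pairs with ITGB1, ITGB3, ITGB5, ITGB6 or ITGB8 and binds RGD sequences; its dimers with ITGB6 and ITGB8 are known for releasing active TGF-beta from its latent complex, and ITGB6 is mostly an epithelial chain. The chains lie on several chromosomes. On GRCh38, by the exons of the deposited table, ITGB6 spans chromosome 2 from 160099666 to 160271888, ITGAV chromosome 2 from 186590065 to 186680901, ITGA1 and ITGA2 neighbour each other on chromosome 5 (52787896 to 52959210 and 52989326 to 53094779), and ITGB5 spans chromosome 3 from 124761948 to 124901418. ITGB8 lies on chromosome 7 (20330702 to 20415754), ITGB1 on chromosome 10 (32900319 to 33005792), ITGA5 on chromosome 12 (54395261 to 54419460), and ITGB3 and ITGA3 on chromosome 17 (47253846 to 47311816 and 50055968 to 50090481).

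The sequences just upstream of 3 chains are shown because 2 of them, ITGB6 and ITGA2, fell and the third, the ITGAV partner ITGB5, rose. Each runs 5′ to 3′ on the gene's strand, comes from RefSeq promoter windows on GRCh38.p14 and stops before the first annotated exon base. They cover chr2:160200314-160200522 on the minus strand, chr5:52989102-52989325 on the plus strand and chr3:124901419-124901668 on the minus strand. Capitals mark matches, on either strand, to an E-box (CACCTG, the core that ZEB and SNAIL repressors bind) or a GC box (GGGCGG, read as CCGCCC where it lies on the opposite strand).
ITGB6: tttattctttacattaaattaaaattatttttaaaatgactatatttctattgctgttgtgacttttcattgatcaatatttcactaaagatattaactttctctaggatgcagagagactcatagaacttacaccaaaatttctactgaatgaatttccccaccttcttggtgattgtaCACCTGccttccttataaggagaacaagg
ITGA2: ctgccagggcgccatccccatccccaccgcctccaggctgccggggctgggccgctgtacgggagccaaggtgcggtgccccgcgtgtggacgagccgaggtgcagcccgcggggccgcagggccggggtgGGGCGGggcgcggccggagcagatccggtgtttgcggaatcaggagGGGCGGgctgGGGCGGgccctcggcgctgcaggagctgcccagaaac
ITGB5: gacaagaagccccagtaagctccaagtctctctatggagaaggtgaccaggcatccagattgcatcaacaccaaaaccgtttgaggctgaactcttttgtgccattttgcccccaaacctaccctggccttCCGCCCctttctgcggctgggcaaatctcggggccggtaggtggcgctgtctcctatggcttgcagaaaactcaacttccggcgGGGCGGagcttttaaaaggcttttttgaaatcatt
The capitals in ITGB6 are 1 E-box, which begins 70 bases before the RefSeq start. That start lies 71616 bases inside the ITGB6 gene as the deposited table draws it. ITGA2 holds 3 GC boxes in the stretch shown and ITGB5 holds 2. In the 250 bases before the start, 17.5% of 34943 RefSeq promoters hold the E-box and 42.5% the GC box. Of the 8 chains with such a window (the nearest window where a chain has several), 1 holds the E-box and 5 the GC box, ITGB1, ITGB8 and ITGA5 besides the 2 shown. The AP-1 motif TGANTCA was found in none of the 8 (6.59% of all promoters) and the TEAD motif GGAATG in ITGB1 and ITGA5 (11.9% of all). A further window of ITGB5, at a start inside the gene, also holds an E-box. No match overlapped one of another motif, and a match is a string of letters, not a bound site.

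The libraries held 10835237 to 11975396 reads on genes. EP300, the gene named in the series title, was not lower: it had 1485 and 1426 reads against 1113 and 1281 (log2 fold change 0.19, SE 0.06, adjusted p = 0.00701 in edgeR). That call ended under DESeq2's Wald test (adjusted p = 0.0639) and when control replicate 1 was left out (0.162). Its range over the alternatives was 0.000105 to 0.162. All 10 listed markers of mammary epithelium were detected in the controls and all 10 fell, from a summed 11438 and 10975 CPM to 1495 and 1399 CPM, with KRT14 at 0 reads where the label is Bromo+/-. Fibroblast markers summed to 105 and 103 CPM against 43.4 and 41.3 CPM, with 2 of 3 tested higher (DCN and COL1A1) and FAP lower, and LUM at 0. LAMB3 is also among the ligands below, as are COL1A1 and COL1A2. Smooth muscle markers summed to 20.6 and 18.5 CPM against 11.9 and 12.4 CPM (2 of 4 tested higher, CNN1 at 0), endothelial markers to 18.1 and 15.2 CPM against 12.3 and 11.7 CPM (2 of 3 tested higher, VWF and ERG at 0), and leukocyte markers to 6.83 and 5.22 CPM against 17.9 and 17.8 CPM (2 of 2 tested lower, CD3E at 0). Platelet markers, read because ITGB3 marks that lineage, summed to 1.95 and 1.94 CPM against 1.14 and 0.950 CPM, with GP9 at 0 and 3 reads of ITGA2B against 1. Over all genes tested 26.4% were called higher and 27.1% lower. Mitochondrially encoded genes took 5.05% and 5.18% of reads against 4.32% and 4.21%. The part of these differences in the changes of the integrin chains was not tested.

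The summed level of the 10 chains was nearly the same in all 4 libraries, while its make-up differed. Per length, as RPKM (reads per kilobase of annotated exon, relative to the scaled library size), the chains summed to 329 and 331 against 325.6 and 326.5, a ratio of group means of 1.01. On the TPM scale the log2 ratio of the sums was 0.08 in place of 0.02. The chains took 0.255% and 0.256% of all reads against 0.240% and 0.243%, between 26009 and 30505 reads a library. In such bulk libraries, fewer cells with a transcript and less transcript per cell cannot be told apart.

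Of the 10 chains 5 rose (ITGB3, ITGA5, ITGA1, ITGB5 and ITGB1), 3 fell (ITGB6, ITGB8 and ITGA2) and 2 (ITGA3 and ITGAV) did not pass. The threshold was a Benjamini-Hochberg adjusted p of 0.05 over all genes, from the quasi-likelihood test of edgeR. Over all genes tested 53.5% passed, 26.4% higher and 27.1% lower. The share of chains that passed, 80%, is thus to be read against a background in which more than every other gene passed. Scaling by library size alone changed that background from 49.4% to 61.3% higher calls among the genes called. The median log2 fold change of the chains was 0.10, against 0.01 over all genes. In all 10 chains both libraries of a group lay beyond both of the other in CPM (read counts relative to the scaled library size), which held for 75.3% of all genes.

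**Figure D1:**
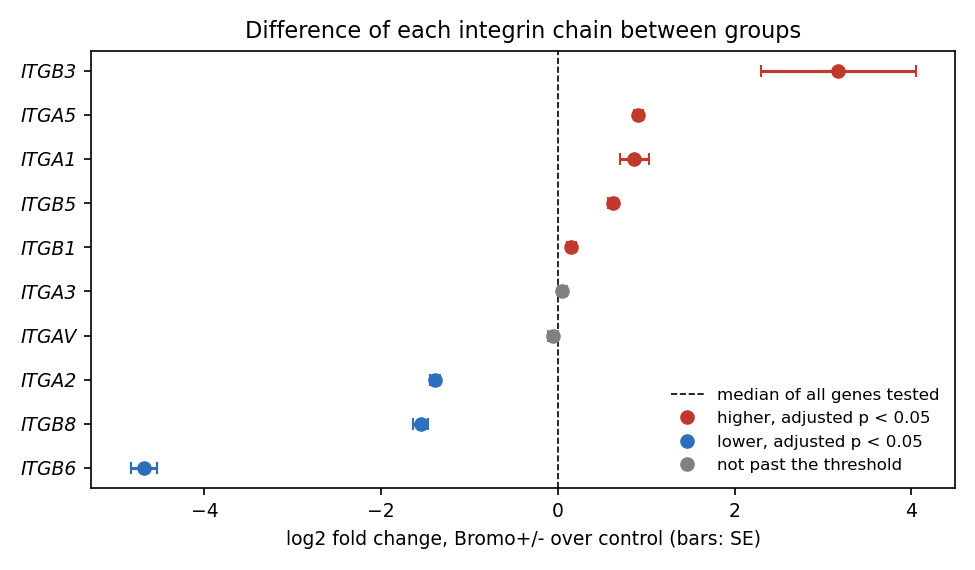
Log2 fold change of each integrin chain, Bromo+/- over control, as a point with its standard error as a bar; the dashed line is the median of all genes tested. ITGB6 at -4.69 and ITGB3 at 3.17 stand at the ends, and ITGA3 and ITGAV lie beside the median.

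ITGB6 had the largest fall of the set. It stood at 4.64 and 4.60 CPM against 118 and 120.1 CPM. The libraries of each group were almost equal, and the groups were far apart. ITGB6 was 25.8-fold lower (log2 fold change -4.69, SE 0.15, adjusted p = 4.30e-118). Of all genes tested 1.19% had a lower log2 fold change. No annotated exon of another gene overlaps those of ITGB6, and it had 109 reads over both libraries labelled Bromo+/- against 2633 over both controls. The 10 epithelial markers, which summed to 1495 and 1399 CPM against 11438 and 10975 CPM, fell in the same libraries, and their part in this fall was not tested.

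ITGB8, the other TGF-beta-activating partner of ITGAV, also fell. It stood at 23.0 and 23.3 CPM against 64.4 and 71.3 CPM in the controls, with no overlap between groups. The log2 fold change was -1.55 (SE 0.09, adjusted p = 5.37e-47). Its exons share 98 bases with an antisense gene, ITGB8-AS1, which had 6 and 4 reads against 15 and 13, where ITGB8 had 283 and 263 against 675 and 826.

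ITGB5, which pairs with ITGAV to bind vitronectin, went the other way. It stood at 303 and 301 CPM against 197 and 196 CPM. Replicates were nearly equal and the groups well apart. It rose by 0.62 on the log2 scale (SE 0.05, adjusted p = 5.10e-24).

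ITGB3, found with ITGAV on osteoclasts and with ITGA2B on platelets, was close to the detection limit. It had 20 and 11 reads against 1 and 2. From these reads the ratio of Bromo+/- to control was 9.66 with a 95% exact interval of 3.01 to 49.4, which covers counting error only. The fitted log2 fold change was 3.17 (SE 0.88, adjusted p = 5.26e-06). Of its 4394 exon bases 2266 are shared with another annotated gene on the same strand that had no reads in any library, and how the counting treated reads on the shared part is not given. Without Bromo+/- replicate 1 the gene no longer had enough reads to be tested.

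ITGAV itself, the common partner of these 4 β chains, did not pass the threshold. It stood at 149.7 and 149 CPM against 150.5 and 159.7 CPM. The group means differed by less than the SD of the control libraries. The log2 fold change was -0.05 (SE 0.06, adjusted p = 0.450), and its sign turned with upper quartile scaling (0.01) and with library size alone (0.03).

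Set against each other per full exon length, ITGB5 led and ITGB3 came last among the 4 ITGAV partners in both groups, while ITGB6 and ITGB8 exchanged rank. ITGB5 made up 94.7% and 94.95% of their summed RPKM (mean 94.84% ± 0.158, SD, n = 2) against 57.2% and 56.3% (56.73% ± 0.658). ITGB6 made up 1.47% in each library labelled Bromo+/- against 34.8% and 34.95% (34.89% ± 0.0923). ITGB8 made up 3.06% and 3.12% against 7.94% and 8.71%, and ITGB3 0.745% and 0.451% against 0.0406% and 0.0727%. Each of these 4 shares had the groups apart, and an exact two-sided permutation test gave p = 0.333 for each, the smallest that 2 libraries against 2 allow. ITGB1, which also pairs with ITGAV, was left out because it has many other partners. With ITGB1 included the difference between groups shrank from 38.1 to 8.65 percentage points for ITGB5, from -33.4 to -11.0 for ITGB6, from -5.23 to -1.83 for ITGB8 and from 0.541 to 0.154 for ITGB3. As shares of reads, not per length, it was 40.0, -29.7, -10.7 and 0.357 points in the same order. The summed level of the 4 partners was 49.7 and 49.1 RPKM against 53.5 and 54.0 RPKM. The ratio of ITGAV to that sum was 0.367 and 0.3699 against 0.3425 and 0.3599, slightly higher with the label Bromo+/-. The RPKM of ITGB5 over that of ITGB6 was 64.5 in each library labelled Bromo+/- against 1.64 and 1.61.

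**Figure D2:**
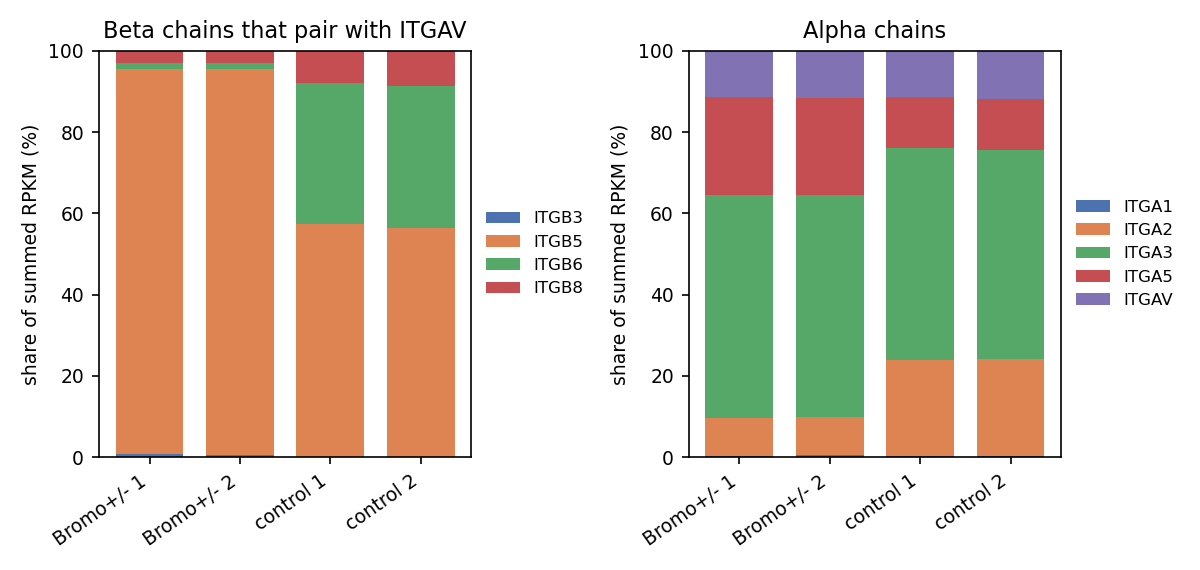
Share of summed RPKM in percent, stacked by chain, 1 bar for each library: the β chains that pair with ITGAV on the left and the 5 α chains on the right. ITGB6 fills about 35% of the left bars in the controls and 1.47% in the libraries labelled Bromo+/-, and on the right ITGA5 and ITGA2 trade shares.

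Among the α chains the fibronectin receptor chain rose. ITGA5 stood at 290.2 and 281 CPM against 151 and 153 CPM. The groups did not overlap, and the difference was many times the spread within either. It rose 1.88-fold (log2 fold change 0.91, SE 0.06, adjusted p = 6.56e-41).

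ITGA2, which makes the main collagen receptor of epithelial cells with ITGB1, fell. It stood at 115 and 117 CPM against 302 and 307 CPM. Again the libraries of a group were close together. The level was 2.62-fold lower (log2 fold change -1.39, SE 0.06, adjusted p = 1.31e-67).

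ITGA1, the other collagen-binding chain of the set, was scarce and rose. It stood at 10.6 and 12.1 CPM against 5.44 and 6.91 CPM, from 57 to 137 reads a library. The groups did not overlap, though the replicates differed by more, in proportion, than those of ITGA2. The log2 fold change was 0.87 (SE 0.17, adjusted p = 9.85e-07). ITGA1 shares 475 of its 18566 exon bases with PELO, a ribosome rescue factor on the same strand that had 520 to 710 reads a library, and 571 with RPL17P21, which had none. How reads there were assigned is not given. Together ITGA1 and ITGA2 summed to 15.2 and 15.5 RPKM against 38.4 and 39.2 RPKM, so the rise of ITGA1 made up little of the fall of ITGA2. Collagen-binding chains outside the set are not in this sum.

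ITGA3, the laminin-binding chain, did not pass the threshold at 861 and 834 CPM against 819 and 818 CPM (log2 fold change 0.05, SE 0.05, adjusted p = 0.410). It passed with upper quartile scaling (adjusted p = 0.0467) and with library size alone (adjusted p = 0.0132), which moved the median of all genes to 0.07 and 0.09. ITGB1, the common β chain, stood at 722 and 759 CPM against 672 and 662 CPM, up by 0.15 on the log2 scale (SE 0.05, adjusted p = 0.00774). This small rise lost its call without Bromo+/- replicate 2 (adjusted p = 0.0608) and without control replicate 1 (0.0979) or 2 (0.164), and over all alternatives its adjusted p in edgeR and the other tests lay between 1.68e-05 and 0.164.

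Per length, ITGB1 and ITGA3 led in both groups and the middle of the order changed. In the controls ITGB1 (111 ± 1.15 RPKM, SD, n = 2) was followed by ITGA3 (83.5 ± 0.0853), ITGA2 (38.5 ± 0.525), ITGB5 (30.5 ± 0.137), ITGA5 (20.0 ± 0.130), ITGAV (18.9 ± 0.795), ITGB6 (18.8 ± 0.183), ITGB8 (4.48 ± 0.324), ITGA1 (0.332 ± 0.0560) and ITGB3 (0.0305 ± 0.0124). ITGAV and ITGB6 overlapped there and could not be ordered. In the libraries labelled Bromo+/- the order was ITGB1 (123 ± 4.30), ITGA3 (86.5 ± 1.94), ITGB5 (46.8 ± 0.311), ITGA5 (37.7 ± 0.850), ITGAV (18.2 ± 0.0460), ITGA2 (14.7 ± 0.184), ITGB8 (1.53 ± 0.0107), ITGB6 (0.726 ± 0.00440), ITGA1 (0.611 ± 0.0585) and ITGB3 (0.296 ± 0.105). No neighbours overlapped in that list. If all counted reads of ITGB3 lay on the 2128 exon bases it does not share, its level there would be 0.611 RPKM, level with ITGA1. Whether they did is not given. By library that is 0.764 and 0.457 RPKM, which overlaps ITGB6 (0.729 and 0.723), so these 2 could not then be ordered. ITGA5 moved from below ITGA2 in the controls (RPKM of ITGA5 over ITGA2 0.523 and 0.518) to above it (2.63 and 2.50). Within the 5 α chains ITGA2 took 9.33% ± 0.270 against 23.9% ± 0.115, and ITGA5 23.9% ± 0.145 against 12.4% ± 0.0287 (exact permutation p = 0.333 for each). RPKM rests on the annotated exon length of every isoform together, which is 18566 bases for ITGA1 and 15156 for ITGB8, and which isoforms were used cannot be read from gene counts.

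**Figure D3:**
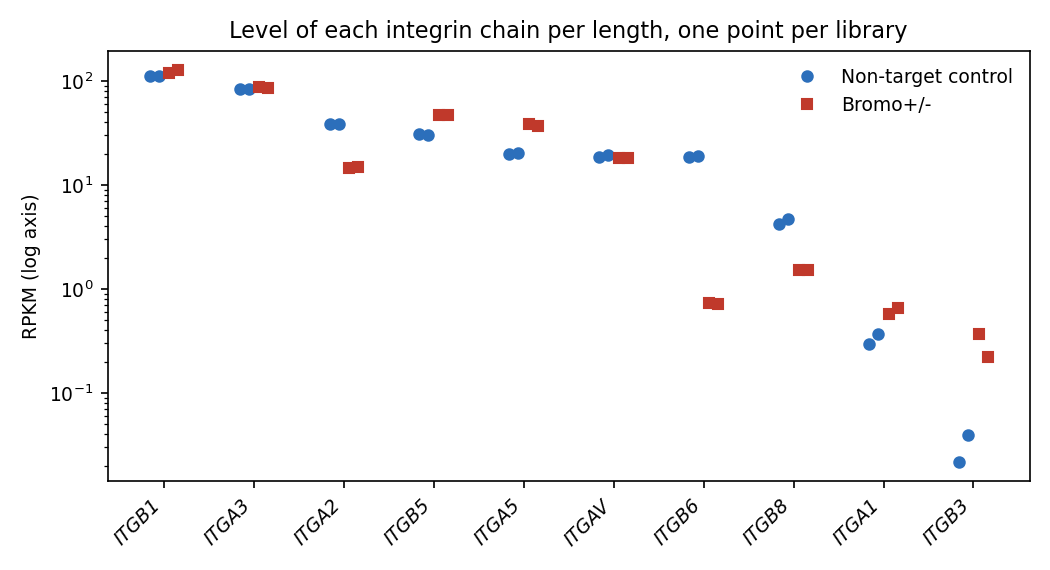
Level of each chain as RPKM on a log axis, 1 point for each library, circles for the controls and squares for Bromo+/-, ordered by the control mean. ITGB1 and ITGA3 stay on top in both groups, while ITGB6 drops from 18.8 to 0.726 RPKM.

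The integrin chains outside the set included the hemidesmosome pair. Of 16 such chains 6 were tested, 2 fell, 2 rose and 2 did not pass (median log2 fold change 0.09). Those that passed are 66.7% of the tested ones, beside 53.5% over all genes. ITGA6, the α chain of the hemidesmosome, stood at 305 and 343 CPM against 1004 and 1016 CPM (log2 fold change -1.64, SE 0.05), and its partner ITGB4 fell by 0.24 on the log2 scale (SE 0.05). ITGA7 (1.61, SE 0.35) and ITGA10 (0.98, SE 0.23) rose from low levels, and ITGAE (0.17) and ITGB2 (0.02) did not pass. ITGA7 had 28 and 51 reads against 11 and 13, and its log2 fold change lay between 1.06 and 2.04 over the alternatives. Its exons share 44 bases with METTL7B on the opposite strand, which had 55 and 45 reads against 3 and 2. ITGA10 had 72 and 61 reads against 35 and 28. ITGA4, ITGA8 and ITGAD had no read in any library, where 3 reads would have been 0.244 to 0.286 CPM.

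Genes that switch integrins on and tie them to actin went both ways. Of 31 tested activators and adaptors out of 35 listed, 12 rose, 11 fell and 8 did not pass (median -0.06). The passing share was 74.2%, beside 53.5% over all genes. FERMT2, the kindlin found in most adherent cells, rose by 1.78 (SE 0.07), at 133 CPM in both libraries labelled Bromo+/- against 42.0 and 35.8 CPM. FERMT1, the kindlin of epithelia, fell by 0.49 on the log2 scale (SE 0.06). Of the 4 tensins 3 rose, TNS1 by 3.64 (SE 0.48), TNS2 by 2.75 (SE 0.11) and TNS3 by 0.43 (SE 0.07), whereas TNS4, a short epithelial tensin, fell by 0.74 on the log2 scale (SE 0.05). TNS1 had 64 and 72 reads against 3 and 7, and its value was 4.28 without control replicate 2. KANK2, a talin-binding protein, rose by 1.28 and PTK2, the focal adhesion kinase, by 0.75.

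More matrix ligands of integrins rose than fell. Of 24 tested ligands out of 32 listed, 18 rose, 5 fell and 1 (LAMA5) did not pass, with a median log2 fold change of 1.08 against 0.01 over all genes. Some 95.8% of the tested ligands passed, beside 53.5% of all genes. The summed level of the listed ligands went the other way, at 10782 and 10971 CPM against 14519 and 14175 CPM. FN1, the fibronectin that ITGA5 and ITGAV dimers bind, stood at 3919.8 and 4086 CPM against 1290.4 and 1190.1 CPM and rose by 1.69 on the log2 scale (SE 0.05). The microfibril genes FBN2 (6.92, SE 0.28) and FBN1 (4.52, SE 0.12), both with RGD sequences, rose as well. Among those that fell were the laminin chains LAMA3 (-3.87) and LAMB3 (-2.97), parts of a ligand of ITGA3 and ITGA6 dimers, and the matricellular genes TNC (-1.50) and THBS1 (-0.94). EDIL3, a secreted RGD protein, had 13 and 20 reads against none, at least 10.3-fold higher by a floor of 3 reads over the control group.

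Most tested genes listed under the latent TGF-beta complex rose. The list takes the LTBP genes by family name. Which of its genes bind latent TGF-beta, and on which of them ITGAV dimers with ITGB6 and ITGB8 act, was not tested. Of 7 tested genes out of 9 listed 6 rose, none fell and LTBP3 did not pass (median 1.29). Passing genes were thus 85.7% of those tested, beside 53.5% over all genes. LTBP1, the binding protein that anchors the complex in the matrix, stood at 202 and 213 CPM against 19.4 and 17.4 CPM (log2 fold change 3.50, SE 0.09). TGFB1 rose by 1.98 (SE 0.08), with exons that overlap those of HNRNPUL1, and LTBP2 (1.34), TGFB2 (1.29), LTBP4 (1.15) and TGFB3 (1.03) rose too. The rise of TGFB3 did not pass in the DESeq2 Wald test (adjusted p = 0.100). LRRC32, which holds latent TGF-beta on the cell surface, had no read in any library.

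More membrane partners of integrins fell than rose. Of 14 tested, 9 fell, 3 rose (CD47, CD81 and TSPAN4) and 2 did not pass (BSG and CD151, the tetraspanin that binds ITGA3, at -0.06), with a median of -0.59. The 12 that passed are 85.7% of those tested. Over all genes 53.5% passed, 26.4% higher and 27.1% lower. The tetraspanin CD82 stood at 2.28 and 2.74 CPM against 57.8 and 50.1 CPM, a log2 fold change of -4.42 (SE 0.20). CD9 (-1.31), the urokinase receptor PLAUR (-1.28), the syndecan SDC1 (-1.26) and TSPAN14 (-1.22) fell as well. The call for CD81 ended without control replicate 2 (adjusted p = 0.116).

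Of 16 tested genes of integrin trafficking 4 rose, 5 fell and 7 did not pass (median -0.09). The 9 that passed are 56.2% of those tested, close to the 53.5% over all genes. RAB25, an epithelial GTPase known to carry ITGB1 dimers back to the surface, had 1 and 4 reads against 877 and 872, a log2 fold change of -8.48 (SE 0.65). With so few reads that value moved to -7.77 without Bromo+/- replicate 1 and to -9.75 without replicate 2. RAB11FIP1 (-0.85), CLIC3 (-0.75), ARF6 (-0.60) and RAB11A (-0.48) fell, and ARRB1 (1.38), RAB4A (0.99), ARRB2 (0.38) and SNX17 (0.16) rose. The calls for CLIC3 and SNX17 ended in the DESeq2 Wald test (adjusted p = 0.0637 and 0.167), and that for SNX17 also without Bromo+/- replicate 1 (0.396) or either control replicate (0.251 and 0.108) and with no filter on low counts (0.0610). Among 9 tested matrix receptors of other families 3 rose, 5 fell and RPSA did not pass (median -0.29). Their passing share was 88.9%, beside 53.5% over all genes. The collagen receptor DDR1 stood at 50.1 and 45.6 CPM against 188.5 and 190.0 CPM and fell by 1.98 on the log2 scale (SE 0.07), the same direction as ITGA2. CD44 (-0.65) and LGALS3 (-0.88) fell, and so did HMMR (-0.29) and BCAM (-0.88). The syndecan SDC3 rose by 2.33 (SE 0.10), SDC2 had 66 reads against 1, a ratio of 61.7 (95% exact interval 10.7 to 2474), and DAG1 rose by 0.15. The fitted log2 fold change of SDC2 was 5.64, and 4.85 without control replicate 1 or 7.99 without control replicate 2, which held the only control read. The DESeq2 Wald test did not call DAG1 (adjusted p = 0.0777) or BCAM (0.121). Leaving out libraries ended the calls of DAG1 (without Bromo+/- replicate 1, 0.134; without control replicate 1, 0.0738, or 2, 0.255), BCAM (without Bromo+/- replicate 2, 0.132; without control replicate 1, 0.0602) and HMMR (without control replicate 2, 0.0872).

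**Figure D4:**
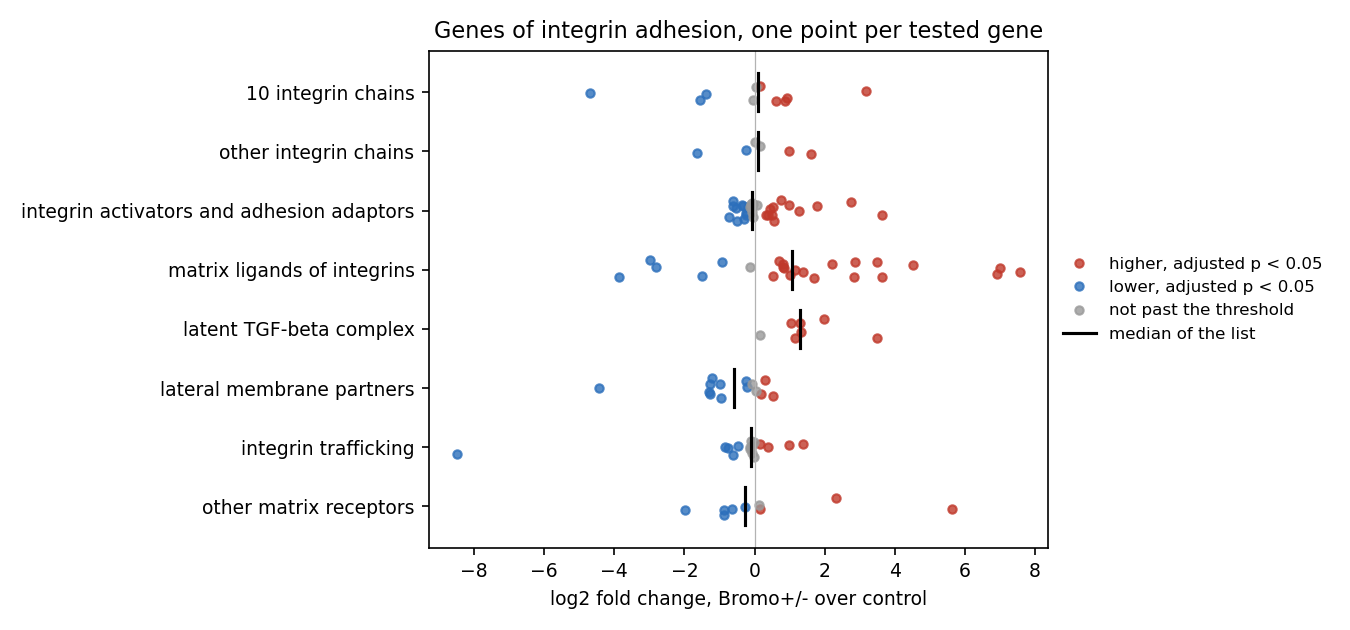
Log2 fold change, Bromo+/- over control, of each tested gene in the 10 chains and in 7 lists of integrin biology, 1 point a gene, with the list's median as a black bar. The points for the chains, adaptors and trafficking genes fall on both sides of 0, and the medians of the ligands (1.08) and the latent TGF-beta complex (1.29) lie to the right.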

How the data were processed

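RNA was sequenced with a stranded poly(A) mRNA kit from 4 MCF10AT samples, per the labels' protocols. The table the authors deposited holds raw counts for Ensembl genes and each gene's exon length. STAR, the GRCh38 build and featureCounts 1.5.2 are named in the submitters' processing notes; for annotation release, strand setting and reads that fit several genes, the sources used here give nothing. Control columns carry WT in their name and were taken as non-target control since the remaining ones abbreviate Bromo.

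The main test was edgeR 4.0.16 under R 4.3.3 (filterByExpr, TMM scaling, robust quasi-likelihood test, 2 residual degrees of freedom) over 13179 genes. The standard error comes from the fitted model, which shares information on spread across genes. The biological coefficient of variation was 3.52%. Replicates correlated at 0.995 in either group, against a highest value of 0.912 across groups, and differed by more than sampling noise. In simulated counts of 12940 genes, 12742 were left unchanged, and the test called 8 of these (0.0628%). The test recovered 74.2% of changes of 0.5, 92.4% of 1 and 98.5% of 2 on the log2 scale. In the data 53.5% of genes passed, so these rates need not hold there. Lists were described by counts and medians. From each list up to 5 called genes with the smallest adjusted p are named; FN1, FERMT1, EDIL3, TNS1, TNS3, the sums, the α chain shares, the ratios and genes named beside small counts were chosen after their values were seen. The 10 chains and the lists were chosen with earlier results of these data known. Some list members are counted but not reported here by name. Reads are not independent molecules, so intervals and floors cover counting error only.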

Additional observations from a re-analysis of the deposited data

How the results depend on the processing

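Alternatives were DESeq2 1.42.0 size factors, upper quartile scaling, no scaling beyond library size, the absence of a filter, a filter at 1 CPM in every library of a group, the DESeq2 Wald test, voom of limma 3.58.1, a replicate block, and leaving out each library. Under each of these that could test them, ITGA1, ITGA2, ITGA5, ITGB3, ITGB5, ITGB6 and ITGB8 kept their direction and stayed past the threshold; the log2 fold change lay between -4.70 and -4.60 for ITGB6, 0.61 and 0.70 for ITGB5, and 2.85 and 3.63 for ITGB3. ITGB1 and ITGA3 changed call and ITGAV changed sign, as given above. The DESeq2 Wald test called 2292 genes higher, against 3485, and 2592 lower, against 3570. The summed level of the chains differed by 0.02 on the log2 scale as RPKM and by 0.0793 as TPM; the cause of these shifts was not tested. Leaving out a library gave 4 chains higher and 3 lower each time (ITGB3 was not tested without Bromo+/- replicate 1, and ITGB1 lost its call without each of the others), 2711 to 3218 genes higher and 2840 to 3423 lower. With all its reads set on the exon bases that are not shared, a choice made after seeing the data, ITGB3 had 0.611 and 0.063 RPKM. With the replicate number as a block, 5 chains rose and 3 fell, as without it, and 7271 genes passed in place of 7055. Deviations of same-numbered libraries correlated at 0.0484 over the genes tested. A single such value cannot show whether same-numbered libraries shared a culture or batch, and no label says so. The depth limits ITGB3, with 3 control reads in all.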
